A study of Drosophila melanogaster with 6 samples.

Results

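The CYP3 clan is the large branch of insect cytochrome P450 enzymes that holds the Cyp6, Cyp9, Cyp28, Cyp308, Cyp309, Cyp310 and Cyp317 families of Drosophila melanogaster. Its members were taken by name from the gene rows of a deposited count table, and 36 of 15391 rows matched. Of these, 31 had at least 10 counts in at least 3 of the 6 libraries and are described below, namely 20 Cyp6, 5 Cyp9, 3 Cyp28 and 1 each of the Cyp309, Cyp310 and Cyp317 families. All 31 also passed the filter on low counts used for testing. The study sequenced total RNA of midguts dissected from adult flies. In the 3 libraries of the knockdown group (Rab11_KD), an RNA interference construct against Rab11, a small GTPase of recycling endosomes, was driven by Myo1A-Gal4, a driver active in the enterocytes of the gut epithelium. The 3 libraries of the control group came from flies labelled wild type (WT). Both groups grew at room temperature until adults were 5 days old and then spent 5 days at 29 °C. The labels do not say whether the wild-type flies carried the driver or shared the strain of the knockdown flies, so an effect of strain and an effect of the knockdown cannot be told apart.

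P450 enzymes carry a heme group and use electrons handed over by the reductase Cpr to oxidise small molecules. In insects the CYP3 clan is known for the oxidation of plant toxins, drugs and insecticides, and the midgut, with the Malpighian tubules and the fat body, is a tissue where many of its genes are active. Several members are known to be switched on by foreign compounds, and the level of some differs between fly strains. No sequence is shown for them, because the files used here hold none.

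The libraries held between 9818914 and 33082790 counted reads, with replicate 3 the deepest in either group. Levels are given as CPM, a count relative to the size of its library, scaled by TMM, a method that adjusts library sizes so that most genes are level between libraries. Rab11 itself stood at 64.4, 78.2 and 78.7 CPM after knockdown, against 319, 270 and 219 CPM in wild-type guts, so the knockdown libraries matched their label. Its log2 fold change was -1.87 (edgeR, adjusted p = 0.00342). The labels call the cell type enterocyte, but the RNA held other cells too. Of the fixed markers, all 6 enteroendocrine genes and 3 of 5 genes of stem cells and enteroblasts rose, as did 2 of 6 enterocyte genes, where 9.05% of all genes tested did so. The enterocyte gene Myo31DF had a log2 fold change of -0.55 (edgeR, adjusted p = 0.229), with each knockdown library below each wild-type library. The rest of that list, nub, mex1, Ssk, mesh and Tsp2A, had each knockdown library above each wild-type library. Their log2 fold changes were 0.39, 1.02, 0.54, 1.64 and 1.93, with mesh and Tsp2A the 2 that were called. Over all genes the groups lay apart for 17.7% as lower and 20.2% as higher. None of the 7 genes of the Malpighian tubule passed the test. With replicate number as a block in the fit, mex1 of the enterocyte list (adjusted p = 0.0168) and Rfabg of the fat body list (0.0435) were also called higher. Between fewer cells of a type and less RNA per cell, bulk libraries cannot tell.

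Transcripts of several of the most abundant CYP3 clan genes of the midgut were lower after Rab11 knockdown. Of the 31 members, 8 fell, 2 rose and 21 did not pass the test. Those that fell were Cyp6a2, Cyp6d5, Cyp28d1, Cyp6g1, Cyp6a21, Cyp6t1, Cyp309a1 and Cyp6a9, by 2.11-fold to 9.74-fold in the fit. Those that rose were Cyp6d4 and Cyp6a13. A call needed a p under 0.05, after Benjamini-Hochberg adjustment over 8377 genes, in the quasi-likelihood test of edgeR. Among all those genes 7.63% were called lower and 9.05% higher, or 16.7% in either direction, against 25.8%, 6.45% and 32.3% of the members. The median log2 fold change of knockdown over wild type was -0.62 over the members and 0.04 over all genes tested. Knockdown and wild-type libraries did not overlap for 10 members that were lower and 4 that were higher, 32.3% and 12.9% of the 31, where the shares over all genes were 17.7% and 20.2%. The lists and members were known from earlier results of these data, so these shares are a description.

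**Figure D1:**
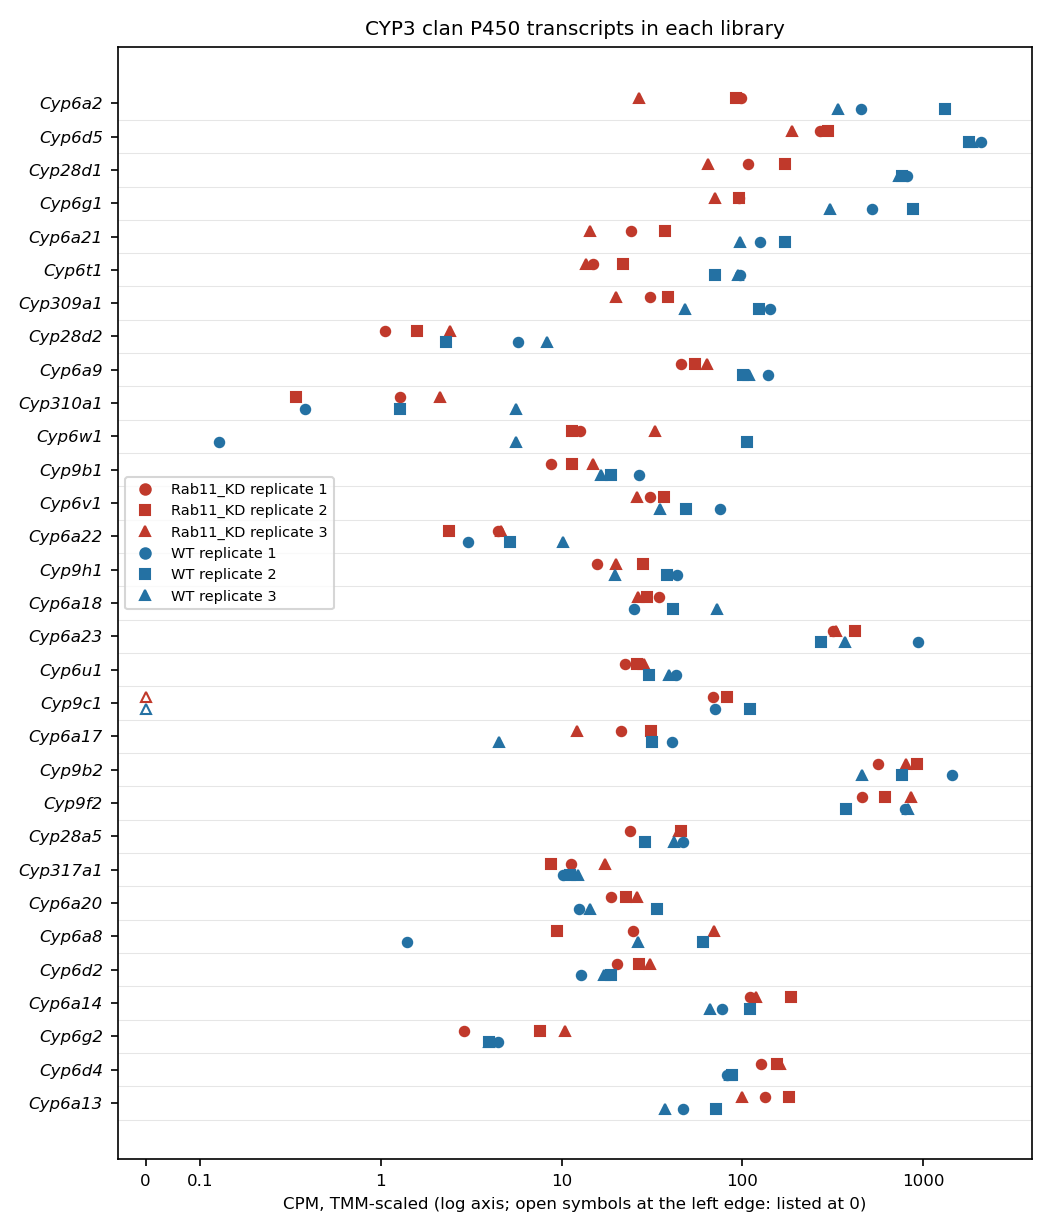
CPM of the 31 CYP3 clan members (TMM-scaled, log axis) in each of the 3 Rab11_KD libraries (red) and 3 WT libraries (blue), ordered by fitted change. From Cyp6a2 down to Cyp309a1 the groups lie apart, while Cyp9c1 is listed at 0 in both replicate 3 libraries and Cyp6w1 spans 0.127 to 107 CPM within the wild type.

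Cyp6d5, a P450 tied to the breakdown of caffeine in flies, was the most abundant member of the wild-type gut per unit of exonic length. It stood at 270, 297 and 189 CPM in knockdown replicates 1, 2 and 3, against 2100, 1782 and 1867 CPM in wild-type guts. Every knockdown library lay far below every wild-type library, and the wild-type libraries were close to each other. The log2 fold change was -2.93 ± 0.32 (SE, n = 3 per group, edgeR, adjusted p = 0.00293). That call held with each library left out, with adjusted p between 0.00544 and 0.0244.

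Cyp28d1, a gene tied to nicotine resistance in flies, behaved alike. Its level was 107, 172 and 64.9 CPM after knockdown, against 815, 763 and 738 CPM in wild-type guts. The wild-type libraries differed from each other by no more than 1.10-fold, and the knockdown libraries by 2.66-fold. A log2 fold change of -2.75 ± 0.39 was fitted (SE, edgeR, adjusted p = 0.00524), and the call held with each library left out.

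Cyp6g1 encodes an enzyme that breaks down DDT and imidacloprid, and its level is known to differ between strains that carry a transposon upstream of it and those that do not. It was found at 96.1, 95.3 and 70.6 CPM after knockdown, against 524, 873 and 304.3 CPM in wild-type guts. The knockdown libraries were nearly level, whereas the wild-type libraries spread 2.87-fold and the lowest of them was still above all of the knockdown. The change was -2.70 ± 0.42 on the log2 scale (SE, edgeR, adjusted p = 0.00697) and kept its call with each library left out.

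Cyp6t1 was a less abundant member with the smallest adjusted p of the clan. It gave 14.9, 21.9 and 13.7 CPM after knockdown, against 97.7, 70.7 and 94.0 CPM in wild-type guts, with no overlap. Its log2 fold change was -2.38 ± 0.26 (SE, edgeR, adjusted p = 0.00274), again held with each library left out. Cyp6d5, Cyp28d1, Cyp6g1 and Cyp6t1 were thus 4 of the 31 members, or 12.9%, whose calls held in all of those fits, where 4.80% of all genes did so.

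Cyp6a2, a phenobarbital-inducible P450 that can oxidise DDT and other insecticides, had the largest fitted fall. Its libraries read 98.4, 91.9 and 26.9 CPM after knockdown, against 452, 1326 and 337 CPM in wild-type guts. The groups did not overlap, but wild-type replicate 2 stood far above the others. The log2 fold change of -3.28 ± 0.71 (SE, edgeR, adjusted p = 0.0222) became -2.44 without that library, where the adjusted p was 0.0477. It missed the threshold when knockdown replicate 1 (0.0759) or 2 (0.0718) was left out.

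Cyp6a21 and Cyp6a9 both lie in the large Cyp6a cluster. Cyp6a21 fell from 131 ± 38.0 to 25.3 ± 11.4 CPM (SD, n = 3 each), with single libraries at 24.3, 37.2 and 14.4 CPM after knockdown, against 125, 172 and 97.2 CPM in wild-type guts. The fitted change was -2.38 (edgeR, adjusted p = 0.00869), and its call was lost without knockdown replicate 1 (0.0532). Cyp6a9 showed the smallest of the falls, at 45.9, 54.8 and 63.6 CPM against 138, 101 and 109 CPM, or -1.08 on the log2 scale (edgeR, adjusted p = 0.0176). It missed the threshold when knockdown replicate 1 (0.0912) or 2 (0.0611), or wild-type replicate 1 (0.0665), was left out. It was also lost with library sizes alone, without TMM, where Cyp6a9 stood at -0.61 (adjusted p = 0.218). About 20.2% of its exonic length is shared with Cyp6a19 on the opposite strand, a gene with 142 counts in all.

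Cyp309a1 completed the falling members. Its values were 30.7, 38.6 and 19.9 CPM after knockdown, against 142, 123.4 and 48.0 CPM in wild-type guts, where replicate 3 was the lowest. The log2 fold change of -1.82 ± 0.44 (SE, edgeR, adjusted p = 0.0320) held without wild-type replicate 3 (0.00838). Its call was lost without knockdown replicates 1, 2 or 3 (0.118, 0.0699 and 0.0697) and without wild-type replicates 1 or 2 (0.102 and 0.0925).

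**Figure D2:**
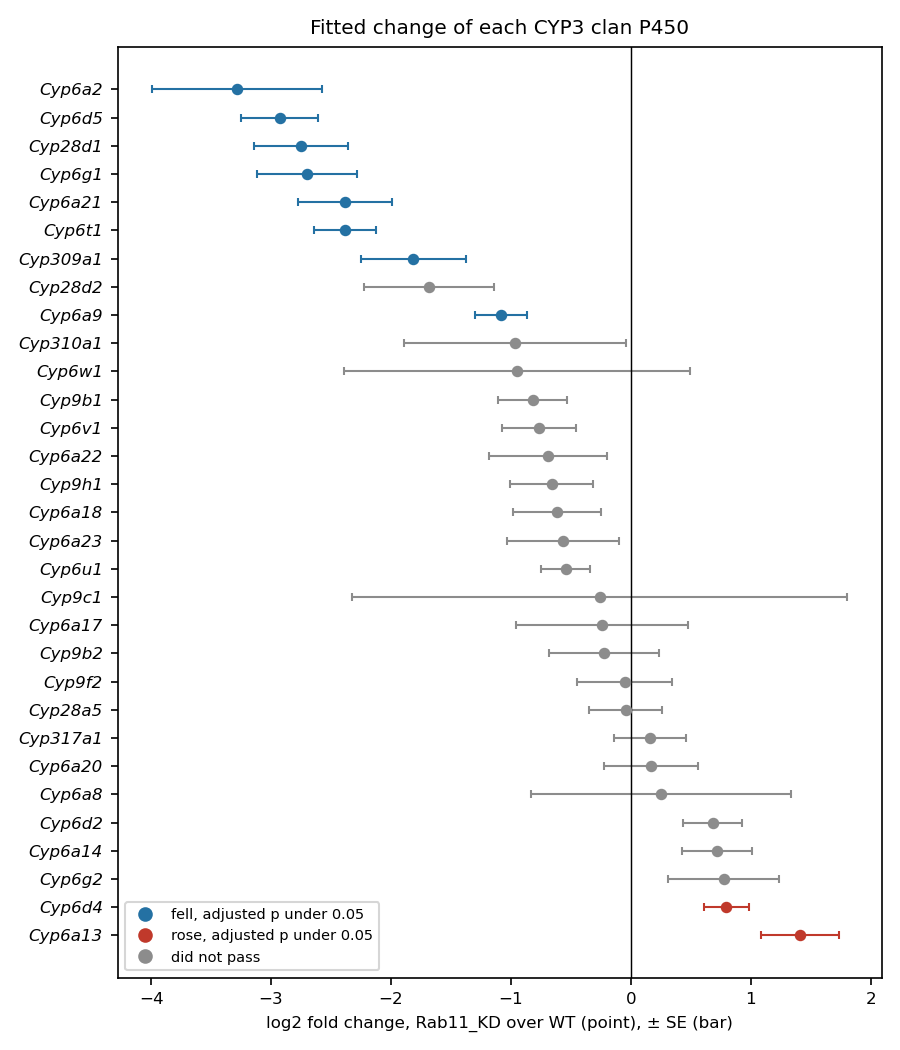
Fitted log2 fold change of each of the 31 members, Rab11_KD over WT (points), with its standard error (bars), coloured by the call at an adjusted p of 0.05. The 8 members that fell lie between -3.28 and -1.08, and the 2 that rose are Cyp6d4 at 0.80 and Cyp6a13 at 1.41.

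Cyp6a13 and Cyp6d4 went the other way. Cyp6a13 stood at 134, 181 and 99.2 CPM after knockdown, against 47.2, 71.9 and 37.2 CPM in wild-type guts, without overlap. It rose by 1.41 ± 0.33 on the log2 scale (SE, edgeR, adjusted p = 0.0282). Its call was lost without knockdown replicates 1 or 2 (0.0913 and 0.0881) and without wild-type replicates 1 or 3 (0.102 and 0.0707).

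Cyp6d4 was close to constant in the wild type, at 82.3, 87.8 and 85.8 CPM, and higher in each knockdown library, at 126, 156 and 162 CPM. The rise of 0.80 ± 0.19 on the log2 scale (SE, edgeR, adjusted p = 0.0293) was lost when any 1 of the 6 libraries was left out (adjusted p 0.0590 to 0.107). It was also lost without a filter on low counts (0.0524). Cyp6d2, of the same subfamily, gave 20.3, 26.8 and 31.01 CPM against 12.8, 18.7 and 17.2 CPM, a change of 0.68 that did not pass (adjusted p = 0.0990). On the opposite strand the gene nsr, with at most 4 counts in a library, overlaps 51.0% of the exonic length of Cyp6d2. The subfamily was thus split, with Cyp6d5 lower, Cyp6d4 higher and Cyp6d2 without a call.

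The replicate numbers, which the groups share, added calls when fitted as a block. Beside the 10 members called before, Cyp28d2 was then lower (adjusted p = 0.0323), and Cyp6a14 and Cyp6d2 were higher (0.0272 and 0.0230), so that 9 members fell and 4 rose. Over all genes the block raised the share of calls from 16.7% to 29.3%, with 14.0% lower and 15.2% higher. Library sizes alone, without TMM, gave 7 falling and 3 rising members, where 2.86% of all genes were lower and 13.8% higher. With no filter on low counts 8 fell and 1 rose, beside 3.92% and 4.77% of all genes. Without the block Cyp28d2 was at -1.68 (adjusted p = 0.0754) and Cyp6a14 at 0.71 (0.140). The lowest knockdown library of Cyp6a14, at 109.8 CPM, was barely above its highest wild-type library, at 109.7 CPM.

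Without both replicate 3 libraries, 10 members fell and 1 rose, where 11.1% and 9.95% of all genes did so. Of the 10 members called with all libraries, 9 were still called. Cyp6d4 lost its call (0.0570), while Cyp6v1 (0.0417) and Cyp9b1 (0.0240) gained one as lower. Without knockdown replicates 1, 2 or 3 the falling members numbered 4, 5 and 7, where 2.15%, 3.35% and 6.66% of all genes were lower. Without wild-type replicates 1, 2 or 3 they numbered 6, 8 and 9, beside 3.33%, 4.11% and 6.76%. At most 1 member rose in these 6 fits, which called 3.25%, 4.05%, 6.88%, 3.21%, 4.6% and 6.14% of all genes higher in the same order.

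**Figure D3:**
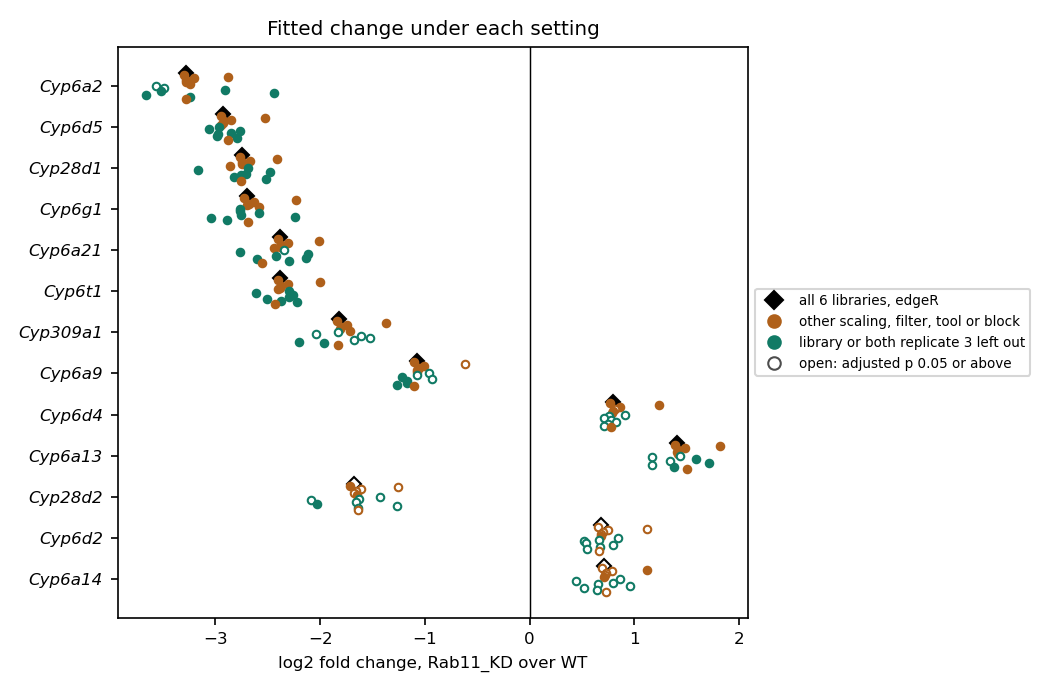
Fitted log2 fold change (Rab11_KD over WT) of the 10 called members and of Cyp28d2, Cyp6d2 and Cyp6a14 with all 6 libraries (diamond) and under each other setting (circles), with open symbols where the adjusted p was 0.05 or above. The side of 0 is the same for each of these 13 genes under every setting, and filled symbols throughout are seen for Cyp6d5, Cyp28d1, Cyp6g1 and Cyp6t1.

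Together the 31 members took 2720, 3676 and 3204 CPM in knockdown replicates 1, 2 and 3 and 8204, 7489 and 5774 CPM in wild-type guts. The knockdown mean of 3200 ± 478 was 44.7% of the wild-type mean of 7156 ± 1249 (SD, n = 3 each), and the groups did not overlap. Relative to library totals alone the means were 3726 ± 779 and 6108 ± 246 CPM, or 61.0%. The 8 members that fell made up 53.5%, 69.6% and 62.2% of the summed level in the wild type and 25.3%, 22.0% and 14.5% in the knockdown. They were chosen by that difference, so these shares are a description. The 21 members without a call summed to 2260 ± 423 CPM in the knockdown and 2619 ± 921 CPM in the wild type.

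**Figure D4:**
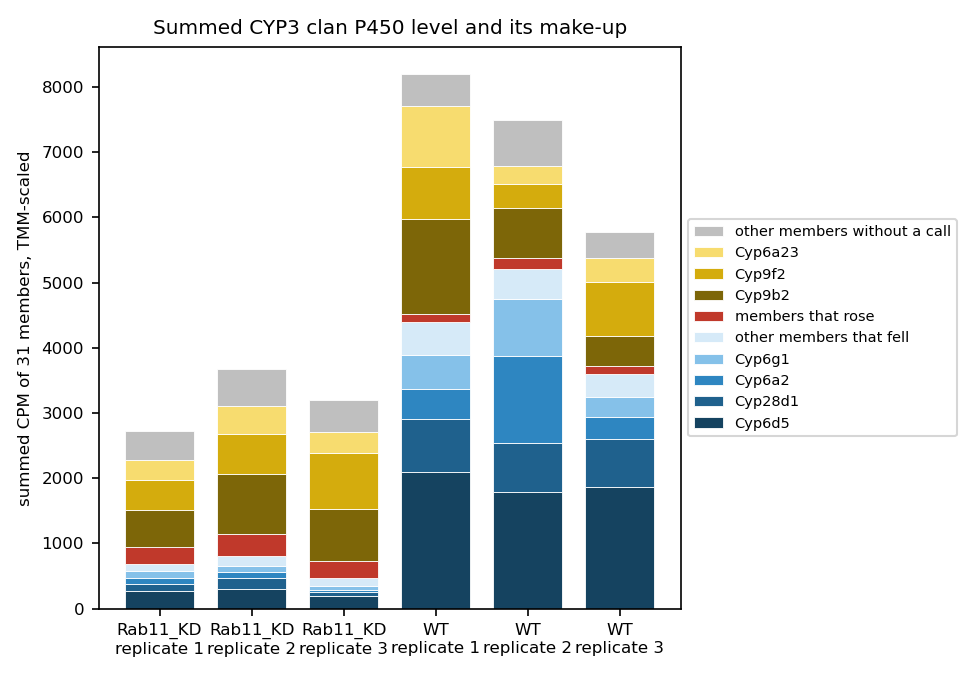
Summed CPM (TMM-scaled, not divided by gene length) of the 31 members in each library, split into Cyp6d5, Cyp28d1, Cyp6a2, Cyp6g1, the other falling members, the rising members, Cyp9b2, Cyp9f2, Cyp6a23 and the rest. Bars reach 2720 to 3676 CPM in the knockdown and 5774 to 8204 CPM in the wild type, and the blue segments of the falling members shrink most.

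Per kilobase of exonic length, the order of the members changed between the groups. In the wild type Cyp6d5 led at 1169 ± 100.4 CPM per kb and ranked first in each library. Behind it came Cyp9b2 (535 ± 304.2), Cyp28d1 (477 ± 24.2), Cyp6a2 (421 ± 323), Cyp9f2 (379 ± 143), Cyp6a23 (299 ± 203) and Cyp6g1 (273 ± 138). From Cyp9b2 down, neighbours in this order of levels per kb did not differ beyond their spread. In the knockdown Cyp6d5 took rank 4 in each library, at 154 ± 34.2 CPM per kb. Cyp9b2 (458 ± 110), Cyp9f2 (366 ± 113) and Cyp6a23 (202 ± 32.7) stood above it. The spreads of Cyp9b2 and Cyp9f2 overlapped, as did those of Cyp6a23 and Cyp6d5, and Cyp6a13 (83.8 ± 25.0) and Cyp6d4 (79.2 ± 10.3) came next.

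Cyp9b2, Cyp9f2 and Cyp6a23 were as abundant as several of the falling members, and none of them passed the test. Cyp9b2 was at 563, 921 and 807 CPM after knockdown, against 1449, 767 and 458 CPM in wild-type guts. Cyp9f2 read 459, 615 and 854 CPM after knockdown, against 795, 375 and 827 CPM in wild-type guts. Cyp6a23 gave 316.6, 422 and 330.0 CPM against 937, 273 and 372 CPM. In all 3 the wild-type libraries enclosed, or nearly enclosed, the knockdown range, and log2 fold changes were -0.22 ± 0.45, -0.05 ± 0.40 and -0.57 ± 0.47 (SE). None of the 5 Cyp9 genes was called in the fit with all 6 libraries, where 16.7% of all genes were. So few genes cannot set the family apart from that share.

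Cyp9c1 was counted in only 4 of the 6 libraries. It had 979 and 728 counts in knockdown replicates 1 and 2 and 559 and 867 counts in wild-type replicates 1 and 2, but 0 in both replicate 3 libraries, the deepest ones. A count of 0 there allows up to 0.0907 CPM in the knockdown and 0.0980 CPM in the wild type. These limits are relative to library totals, without TMM, and cover counting error only. Across all rows, 7 genes had at least 100 counts in each of the other 4 libraries and 0 in both of these. An antisense RNA, CR43787, covers 98.2% of the exonic length of Cyp9c1 and had 0 counts in every library. Without the replicate 3 libraries the log2 fold change was -0.28 ± 0.26 (SE, edgeR, adjusted p = 0.470). The labels name Ion Torrent and Illumina protocols without saying which library had which, so a part of the platform in this pattern was not tested.

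Some members varied more within the wild type than between the groups. Cyp6w1 had 1 count in wild-type replicate 1, or 0.127 CPM, but 107 CPM in replicate 2 and 5.63 CPM in replicate 3. Knockdown libraries were at 12.7, 11.4 and 33.1 CPM, inside that range. Its fitted change was -0.95 ± 1.44 with all libraries and 2.61 without wild-type replicate 2, and neither passed (adjusted p = 0.705 and 0.187).

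Cyp6a8, a caffeine- and phenobarbital-inducible gene of the Cyp6a cluster, had the same order of wild-type libraries, at 1.40, 60.3 and 26.4 CPM, or 43.2-fold from lowest to highest with wild-type replicate 1 the lowest. In the knockdown it read 24.9, 9.38 and 69.7 CPM. The groups overlapped widely, with a log2 fold change of 0.25 ± 1.08 (SE). Of the wild-type libraries, replicate 1 was the highest for 14 members, replicate 2 for 11 and replicate 3 for 6. Those highest in replicate 2 were Cyp6a2, Cyp6g1, Cyp6a21, Cyp6w1, Cyp9c1, Cyp6a20, Cyp6a8, Cyp6d2, Cyp6a14, Cyp6d4 and Cyp6a13, by margins of unlike size. Like Cyp6a8, the yolk protein gene Yp1 of the fat body list was low in wild-type replicate 1. It stood at 1.65 CPM there, against 165 and 131 CPM in replicates 2 and 3. Of the same list, Yp2 and Rfabg were also lowest there, as was Yp3 at 64.1 CPM against 143 and 77.4. Lsp2 and Fbp1, both under 1 CPM, were not. Other tissues were lowest in that library too. Tubule genes summed to 290 CPM against 587 and 1251, and visceral muscle genes to 477 CPM against 546 and 1288. The part of any of these tissues in the P450 values was not tested.

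Cyp6a17, whose product affects temperature preference and pyrethroid tolerance, ranged from 4.53 to 41.0 CPM in the wild type and from 12.1 to 31.3 CPM in the knockdown. In both groups replicate 3 was the lowest library. Cyp6a20, known for an effect on male aggression, gave 12.4, 33.9 and 14.3 CPM in the wild type and 18.7 to 26.2 CPM in the knockdown. Neither passed, at -0.24 ± 0.72 and 0.17 ± 0.39 on the log2 scale (SE). Cyp6a17 lies next to Cyp6a23, a related copy, and where reads match both their counts are uncertain.

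Cyp6u1, Cyp9b1, Cyp6v1, Cyp9h1 and Cyp6a18 had a mean level between 20.8 and 53.2 CPM in the wild type and log2 fold changes from -0.82 to -0.54, none of them called. For Cyp9b1 and Cyp6u1 each knockdown library was still below each wild-type library. Cyp9b1 read 8.70, 11.4 and 14.9 CPM after knockdown, against 26.9, 18.8 and 16.5 CPM in wild-type guts (adjusted p = 0.0975). Cyp6u1 read 22.6, 26.2 and 28.6 CPM against 42.8, 30.6 and 39.5 CPM (0.113).

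Cyp28a5 and Cyp317a1 did not pass either, at log2 fold changes of -0.04 ± 0.31 and 0.16 ± 0.30 (SE). On the opposite strand the gene Kank overlaps 32.6% of the exonic length of Cyp317a1, and without strand such reads cannot be assigned. Cyp28d2, Cyp310a1, Cyp6a22 and Cyp6g2 were the least abundant of the members, with no library above 10.5 CPM. Cyp28d2 read 1.06, 1.58 and 2.41 CPM after knockdown, against 5.72, 2.29 and 8.34 CPM. Cyp6g2, a gene known from the corpora allata, was at 0.77 ± 0.46 and Cyp310a1 at -0.96 ± 0.93 on the log2 scale (SE), and neither passed.

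The 5 rows under the count rule were not tested. Cyp309a2 had 27 counts over all libraries, Cyp28c1 had 16, Cyp6a19 had 142 and Cyp6t3, known for a role in ecdysone synthesis, had 64. Cyp308a1 had 0 counts in 105385555, which allows up to 0.0285 CPM of that total, without TMM.

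Many members lie beside each other in the genome, and a called member often had a neighbour without a call. In the BDGP6 annotation, used for order only, 20 of the 36 genes form 6 runs of adjacent protein-coding genes. No run held both a lower and a higher call, and 21 of the 31 members had no call. The longest run holds 9, in the order Cyp6a22, Cyp6a17, Cyp6a23, Cyp6a19, Cyp6a9, Cyp6a20, Cyp6a21, Cyp6a8 and Cyp317a1. Of its 8 members with enough counts, Cyp6a9 and Cyp6a21 fell and none rose, where 7.63% of all genes were lower and 9.05% higher. Having none that rose among 8 is near that share. Cyp6a20 lies between Cyp6a9 and Cyp6a21 and stood at 0.17 ± 0.39.

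Cyp6g1 and Cyp6g2 lie on opposite strands with an overlap of 94 exonic bases, 4.53% of Cyp6g1. Cyp6g1 fell by 2.70 on the log2 scale while Cyp6g2 read 2.90, 7.58 and 10.5 CPM after knockdown, against 4.45, 3.95 and 3.96 CPM in wild-type guts. Cyp28d1 and Cyp28d2 both had negative fold changes, with a call for Cyp28d1 alone. Cyp6a14 and Cyp6a13 both had positive ones, with a call for Cyp6a13 alone. With the replicate block Cyp28d2 was also called lower and Cyp6a14 also higher. Whether neighbours differed from each other was not tested.

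**Figure D5:**
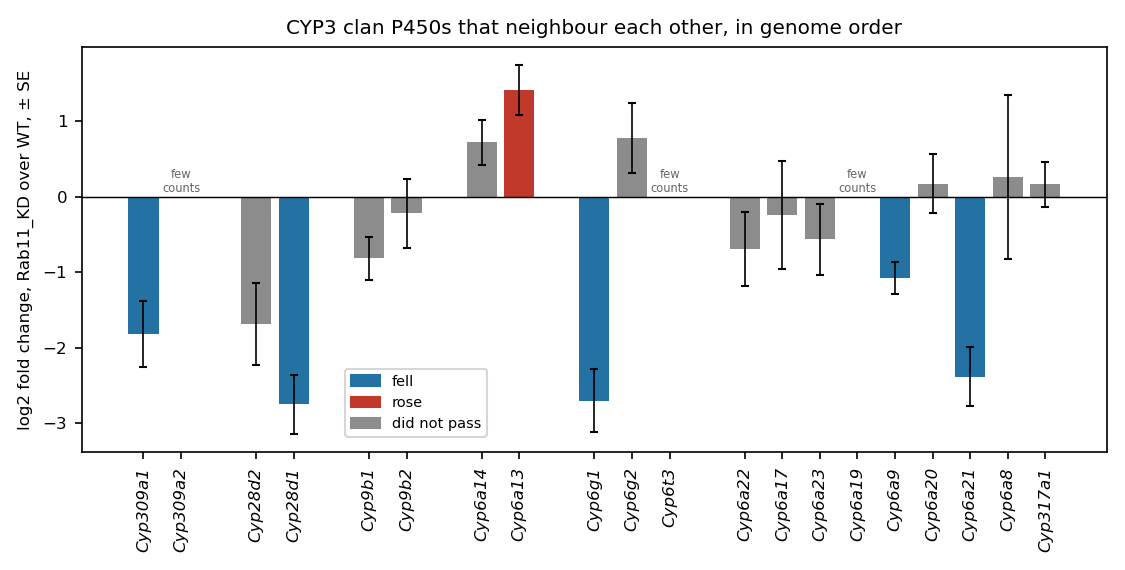
Fitted log2 fold change (Rab11_KD over WT, bars) with its standard error (lines) for CYP3 clan genes that are direct neighbours among protein-coding genes, in genome order with gaps between the 6 runs. Within the 9-gene run at the right, Cyp6a9 and Cyp6a21 fell while Cyp6a20 between them stood at 0.17, and genes with too few counts have no bar.

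Redox partners of the P450s, heme genes, regulators of detoxification genes and genes of the antioxidant response were taken from 4 fixed lists. Of 27 tested, 3 rose and 4 fell, or 25.9% called where 16.7% of all genes were. With the replicate block 12 were called, or 44.4% beside 29.3%. With library sizes alone, GstD2 and Gclc kept their calls, the other 5 lost them, and ref(2)P, Updo, Pbgs and ferrochelatase were called higher. The electron donor Cpr was at 243, 287 and 338 CPM after knockdown, against 549, 466 and 526 CPM in wild-type guts. Its groups did not overlap, yet its log2 fold change of -0.83 ± 0.24 missed the threshold (SE, edgeR, adjusted p = 0.0553) and passed with the block (0.0315). Cytochrome b5 (Cyt-b5), an accessory donor, and the reductase Cyt-b5-r were at -0.33 and -0.26 and were not called. Of 9 genes of heme synthesis and breakdown, the heme oxygenase Ho was the sole one called without the block, at 0.73 (adjusted p = 0.0440), a call lost when any single library was left out. With the block Updo (0.0160) and ferrochelatase (0.0209), both of heme synthesis, rose as well. Alas, which starts heme synthesis, was at 0.35 ± 0.52 (SE, adjusted p = 0.703).

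Among regulators of detoxification genes, 1 of 6 tested rose and 2 fell, where 9.05% of all genes rose and 7.63% fell. The nuclear receptor Hr96, a sensor of foreign compounds and lipids, rose from 55.6 ± 9.97 to 98.7 ± 16.9 CPM (SD, n = 3 each, edgeR, adjusted p = 0.0415), a call that held only without wild-type replicate 3. Keap1, which restrains the transcription factor encoded by cnc, fell by 1.70 on the log2 scale (adjusted p = 0.0202), a call lost without knockdown replicates 1 or 2 or wild-type replicate 2. With library sizes alone Keap1 stood at -1.22 (adjusted p = 0.143). The ecdysone receptor EcR fell by 0.96 (0.0325), a call lost without any single library. The cnc gene itself was at -0.53 ± 0.22 and maf-S, its partner, at 0.12, and neither passed.

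Of 9 genes of the antioxidant response that cnc controls, 1 rose and 2 fell, beside the same shares of all genes. With the block Gclm also fell (adjusted p = 0.0119) and ref(2)P also rose (0.0224). The glutathione transferase GstD2 rose from 11.5 ± 3.23 to 124 ± 69.0 CPM (adjusted p = 0.00539), although it belongs to a family of close copies whose reads are uncertain. Gclc, the catalytic subunit of glutathione synthesis, fell from 569 ± 113 to 160 ± 8.36 CPM (adjusted p = 0.00458). The catalase Cat fell by 1.13 on the log2 scale (0.0431), a call that held only without wild-type replicate 3. The first pair kept their calls with each library left out. The list thus held members of either sign, with a median log2 fold change of -0.02.

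The other P450s of the table are given beside the 32.3% of members called and the 16.7% of all genes. In the CYP4 clan 8 of 24 tested genes fell and 1 rose, or 37.5% called, with a median log2 fold change of -0.65. Of 10 tested P450s of the mitochondrial and CYP2 clans, 1 fell and 1 rose, or 20%, with a median of -0.28. With the replicate block 10 fell and 3 rose in the CYP4 clan, where Cyp4ad1, Cyp4s3, Cyp4p1 and Cyp4p3 were added (adjusted p = 0.0414, 0.0181, 0.0128 and 0.0211). In the mitochondrial and CYP2 clans 1 fell and 2 rose with the block, Cyp12b2 being added (0.0197). The block thus called 54.2% of the tested CYP4 clan genes and 30% of the others. Among all genes it called 29.3%, with 14.0% lower and 15.2% higher. No test of a difference between the clans was made, and no pattern above is called particular to the CYP3 clan.

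Tissues that could be carried along with the midgut were checked by their markers. The 7 Malpighian tubule genes, of a tissue rich in P450s, summed to 396 to 623 CPM in the knockdown and 290 to 1251 CPM in the wild type, and the urate oxidase Uro was present in every library at 83.6 to 247 CPM. Summed visceral muscle genes ranged from 484 to 530 CPM and from 477 to 1288 CPM, and none of the 7 was called. For the 6 fat body genes the ranges were 269 to 1037 CPM and 69.2 to 381 CPM, with Lsp2 and Fbp1 under 1 CPM in every library. The 4 hemocyte genes together stayed under 2 CPM. The part of tubule or fat body RNA in the P450 levels was not tested.

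The authors' deposited table of their own DESeq2 comparison lists 2450 genes with an adjusted p under 0.1, where the count data held 15391 rows. It holds 14 of the 31 members, 11 lower and 3 higher. Under 0.05 in the authors' deposited table, 9 members are lower and 2 higher. Genes above the limit of 0.1 are not listed there, so no share over all genes tested can be set beside these counts. In the authors' deposited table all 10 members called above are present with the same signs, and Cyp28d2, Cyp9b1, Cyp6u1 and Cyp6d2 are the other 4. There the log2 fold changes of Cyp6d5, Cyp28d1 and Cyp6a2 are -2.85, -2.59 and -2.80, per the authors' deposited table. The edgeR fit above gave -2.93, -2.75 and -3.28, and DESeq2 run here gave -2.77 for Cyp28d1 and -3.30 for Cyp6a2. Why the values differ was not tested. Both comparisons rest on the same libraries, so shared signs are not independent support.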

How the data were processed

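Total RNA of midguts was sequenced in 3 Rab11_KD and 3 WT libraries, grouped and numbered by their titles. The authors deposited raw read counts per gene. They also deposited a comparison table with, per the file headers, a mean and a test statistic (taken as scores), a log2 fold change, its standard error, a p-value and an adjusted p-value per gene. STAR 2.4.2a, HTSeq 0.6.1, DESeq2 and build BDGP5 are named in the submitters' processing notes; the strand setting is not given in the sources used here. Exonic lengths, overlaps and gene order come from a BDGP6 annotation, so no coordinates are given; all 36 members were found in it. All 70 genes of 11 further lists were matched to a row.

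Counts were filtered with filterByExpr (minimum count 10), scaled by TMM (factors 0.78 to 1.45) and tested with edgeR's quasi-likelihood test (edgeR 4.0.16, limma 3.58.1, R 4.3.3), group as sole term, two-sided, Benjamini-Hochberg over all 8377 genes, threshold 0.05. Standard errors are the log2 fold change divided by the root of F. The fits were also run on simulated counts that had the same dispersion for every gene and no replicate effect. That run does not bear on the spread among these libraries. Nothing says that libraries of a group came from separate flies, and p-values then reflect only the spread among these libraries, which may be technical. After subtracting group means, libraries with the same number correlated at 0.14, 0.21 and 0.71, all over 0.1. A fit with replicate number as a block is therefore given as an alternative, while the main fit was unpaired. The choice of that block comes from the data. Some libraries with unlike numbers correlated more than the first pairs: knockdown 2 with wild type 1 at 0.51 and knockdown 1 with wild type 2 at 0.34. Only the replicate 3 libraries correlated best with each other. Alternatives were DESeq2 1.42.0, limma-voom, other scaling and filters, and fits without single libraries or both replicate 3 libraries. Every member with at least 10 counts in 3 libraries could be named. Members and lists were chosen with earlier results of these data known.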

Additional observations from a re-analysis of the deposited data

How the results depend on the processing

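Of 434 alternative fits of single members, 368 kept direction and side of the threshold, 24 lost a call and 9 gained one. In 33 the sign turned, each time for a member without a call, and the cause was not tested. Library sizes alone moved the median over all genes from 0.04 to 0.47, and 82.8% of all calls were higher, against 54.3%; Cyp28a5, Cyp9b2, Cyp6a17, Cyp9c1 and Cyp9f2 then stood at 0.38, 0.27, 0.21, 0.13 and 0.39. Upper-quartile factors gave Cyp28a5 at 0.027 and Cyp9f2 at 0.019. Limma-voom gave Cyp6w1 at 1.85 and Cyp6a17 at 0.39. The replicate block gave Cyp6w1 at 1.23 and Cyp6a17 at 0.14. Without both replicate 3 libraries Cyp310a1, Cyp6a20, Cyp6a8 and Cyp317a1 stood at 0.026, -0.18, -0.85 and -0.11. With single libraries left out, the values ran from -0.21 to 0.21 for Cyp28a5, -1.61 to 0.61 for Cyp310a1, -1.64 to 2.61 for Cyp6w1, -0.58 to 0.32 for Cyp9b2, -0.80 to 0.28 for Cyp6a17, -0.87 to 0.15 for Cyp6a23, -0.086 to 0.76 for Cyp6a20, -0.78 to 1.30 for Cyp6a8, -0.18 to 0.36 for Cyp317a1, -0.89 to 0.52 for Cyp9c1 and -0.33 to 0.15 for Cyp9f2.

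With single libraries left out, members called lower numbered 4 to 9, members called higher 0 to 1, and called genes of the 4 fixed lists 2 to 5. Calls over all genes numbered 460 to 1138 in those fits. The 2 higher members became 1 with no filter, 1 without both replicate 3 libraries and 4 with the replicate block. The 7 called genes of the 4 fixed lists became 11 with DESeq2, 3 with no filter and 12 with the block. Over all genes the calls went from 1397 to 2066 with DESeq2, 1162 with no filter and 2451 with the block. Beside Cyp28d2, Cyp6a14 and Cyp6d2, the block changed no member's call. The summed knockdown level was 3726 CPM with library sizes alone. Counts over all genes moved by over 1.5 times with the block, 1397 to 2451. Fits that leave a library out hold fewer samples. At these depths, the standard errors of Cyp28d2, Cyp310a1, Cyp6a22 and Cyp6g2, members under about 10 CPM, were 0.54, 0.93, 0.49 and 0.46.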

Other observations

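Outside the CYP3 clan, the CYP2 clan gene Cyp305a1 had the largest rise among the tested P450s, at 18.2, 20.0 and 17.4 CPM after knockdown, against 1.65, 3.06 and 1.45 CPM in wild-type guts (log2 fold change 3.21, edgeR, adjusted p = 0.00264). In the CYP4 clan, Cyp4d8 stood at 8.41, 10.4 and 9.17 CPM after knockdown, against 65.2, 113 and 57.8 CPM in wild-type guts (log2 fold change -3.08, edgeR, adjusted p = 0.00213). The mitochondrial P450 gene Cyp12d1-p stood at 31.3 CPM in wild-type replicate 2 and between 1.14 and 3.82 CPM in the other 5 libraries. The library with the highest Cyp6a2, Cyp6w1 and Cyp6a8 levels of the wild type was thus also the highest for it. Cyp12d1-p was not called (edgeR, adjusted p = 0.236). Cyp305a1, Cyp4d8 and Cyp12d1-p were chosen after their values were seen.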
